A study of Mus musculus with 12 samples.

Results

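The genes described here are 41 mouse genes of DNA damage signalling and repair, measured by bulk RNA sequencing in activated CD8+ T cells. They were chosen by symbol from the deposited count table, with earlier results of these data known, and make up 41 of its 55291 symbols. All 41 passed the filter on low counts. CD8+ T cells were taken from lymph node and spleen of wild-type (WT) or Dock8 knockout (KO) mice, activated and expanded in culture for 3 days, and then held for another 24 h either in media or in a bovine collagen gel at 2 mg/mL. The 4 groups were therefore WT media, WT gel, KO media and KO gel, with 3 libraries each and, per the series' design text, n = 3 mice per group. Dock8 is an exchange factor that activates Cdc42 in leukocytes, and T cells that lack it are known for losing integrity while they migrate through confined spaces. All groups shared the activation and expansion, so no group holds resting T cells. The sources used here do not give the strain, age or knockout allele of the mice.

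As background, a DNA break is first bound by sensor complexes, which recruit and activate the apical kinases Atm, Atr and the catalytic subunit of DNA-PK. These kinases mark the chromatin around the break and signal through mediator proteins to the checkpoint kinases Chek1 and Chek2, which slow the cell cycle. Double-strand breaks are then joined end to end, at any stage of the cell cycle, or repaired by homologous recombination, which copies a sister chromatid and so works in S and G2 phase. The Fanconi anaemia genes act on DNA crosslinks, other pathways mend single-strand breaks, damaged bases and mismatches, and the 3 Gadd45 genes are stress-induced regulators of growth arrest. Many recombination genes are known to be expressed mainly in proliferating cells, and activated CD8+ T cells divide fast.

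Levels are given as CPM, a gene's counts as a share of its library's scaled total, with 1 value per library in the order of replicates 1, 2 and 3. A gene is called higher or lower where edgeR's quasi-likelihood test gave a Benjamini-Hochberg adjusted p below 0.05 over all 19010 genes tested. Totals ran from 28483064 to 61390702 counts per library. The least counted member in any library was Gadd45a, with a lowest count of 42. Dock8 itself stood at 362 to 450 CPM in the 6 WT libraries and at 109 to 168 CPM in the 6 KO libraries, so its RNA was lower under the KO label but not absent. The 10 defining CD8 T cell markers were detected in every group, with a sum of 3510 to 3580 CPM in KO gel and 3620 to 4260 CPM in the other libraries. In the number of symbols with a count, the 3 KO gel libraries stood apart from the other 9: at a common depth it was 28362 to 30104, against 24336 to 25142. Mitochondrial genes took 2.27 to 2.61% of KO gel counts, against 1.34 to 2.31%, so these ranges overlapped. The 7 erythroid and platelet markers, none at 0 in KO gel and 4 of them under 1 CPM, summed to 11.3 to 26.6 CPM, against 3.14 to 7.97 CPM. The 7 neutrophil and mast cell markers summed to 2.27 to 5.12 CPM in KO gel (S100a8 and S100a9 at 0) and 0.47 to 2.91 CPM elsewhere. Among them the mast cell gene Cpa3 was at 1.64, 3.89 and 2.49 CPM in KO gel, and Fcer1a at 0.554, 1.1 and 0.598 CPM. In KO media Cpa3 was at 0.991, 2.59 and 1.31 CPM, so its KO gel and KO media libraries overlapped. It was at 1.05, 0.766 and 0.47 CPM in WT media and 1.08, 1.03 and 0.831 CPM in WT gel. The part of these measures in the results below was not tested. In bulk RNA, fewer cells of a type and less RNA per cell cannot be told apart.

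Promoter sequence was read because so many members fell together with genes of S phase, as described further down. E2F transcription factors control many genes of S phase. RefSeq promoter windows, each 300 bases long (250 before to 50 after a gene's start, build GRCm38.p6), were found for 34 of the 41 members. They were searched on both strands for the E2F-type letters TTTCCCGC, TTTCGCGC, TTTGCCGC and TTTGGCGC, and separately, for TTTGAA (the CHR letters found in many G2 and M phase promoters) and CCAAT. Each motif was counted on its own, so that matches of different motifs could overlap. An E2F-type match was present in 10 of the 34 members (29.4%), against 4.75% of the 10863 tested genes with a window and 2.6% of all 27025 genes in the promoter table. Among members called lower in KO gel against KO media it was present in 6 of 16 (37.5%: Bard1, Topbp1, Fancg, Brca2, Rad51c and Clspn), and among the rest in 4 of 18 (22.2%: Mdc1, Chek2, Xrcc6 and Msh6). The CHR letters were present in 3 of 34 members (8.82%) against 15.1% of tested genes, and CCAAT in 20 of 34 (58.8%) against 43%, with a CCAAT match in each of the 3 Gadd45 genes. On a list of S phase genes the E2F-type share was 42.3% (11 of 26), and on a list of G2 and M phase genes the CHR share was 76%. The stretches below are shown because they carry an E2F-type match, for 2 members whose RNA fell and 2 whose change was not called. The match is in capitals, each stretch runs 5′ to 3′ on the gene's own strand and avoids annotated exons. A match is a description of letters, not a binding site, and its relation to the change in RNA was not tested.
Bard1, chr1:71103148-71103207, minus strand: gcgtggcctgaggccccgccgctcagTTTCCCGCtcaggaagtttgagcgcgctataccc
Brca2, chr5:150522427-150522486, plus strand: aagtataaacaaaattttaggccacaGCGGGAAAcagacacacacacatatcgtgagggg
Chek2, chr5:110839805-110839864, plus strand: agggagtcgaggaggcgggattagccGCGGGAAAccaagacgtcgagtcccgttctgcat
Mdc1, chr17:35841438-35841497, plus strand: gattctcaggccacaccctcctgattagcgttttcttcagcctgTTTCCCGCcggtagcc

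In KO cells held in gel, 20 of the 41 genes were lower and 2 were higher than in KO media. Of those that fell, 10 belonged to homologous recombination and 3 to the Fanconi anaemia pathway, and the 2 that rose were Gadd45a and Gadd45b. Over all genes tested, 9.74% were called lower and 11.1% higher in this comparison. Among the 9959 better measured genes, whose log2 CPM averaged 3 or more and which include most members, 16.8% were lower and 6.42% higher. The median member changed by -0.24 on the log2 scale, against -0.01 for all genes tested. The KO gel and KO media libraries did not overlap for 30 of the 41 members, and for 47.4% of all genes tested. DESeq2 called 21 lower and 2 higher. The summed CPM of all members in the KO gel libraries was 83.2, 88.3 and 88.5% of the WT media mean, against 98.4 to 105% in KO media.

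The wild-type response to gel was not called for any member. WT gel against WT media gave 0 higher and 0 lower by edgeR and by DESeq2, with 2 members at an unadjusted p below 0.05. Among all genes 0.0316% were called higher and 0.00526% lower. The median member stood 0.06 above media on the log2 scale and all genes at -0.01. The 2 members at an unadjusted p below 0.05 were Rad54l, 0.20 ± 0.07 (SE) higher in gel (edgeR adjusted p = 0.754), and Gadd45g, 0.55 lower at -0.55 ± 0.20 (edgeR adjusted p = 0.854). The libraries of the 2 WT groups did not overlap for 6 of 41 members, and for 9.18% of all genes. Nor did genotype in media give a call: KO media against WT media gave 0 higher and 0 lower by both tools, with only Chek1 at an unadjusted p below 0.05 (0.20 ± 0.09 SE, edgeR adjusted p = 0.651). Over all genes 0.0263% were called higher and 0.163% lower there, and the groups did not overlap for 3 of 41 members and 10.7% of all genes.

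**Figure D1:**
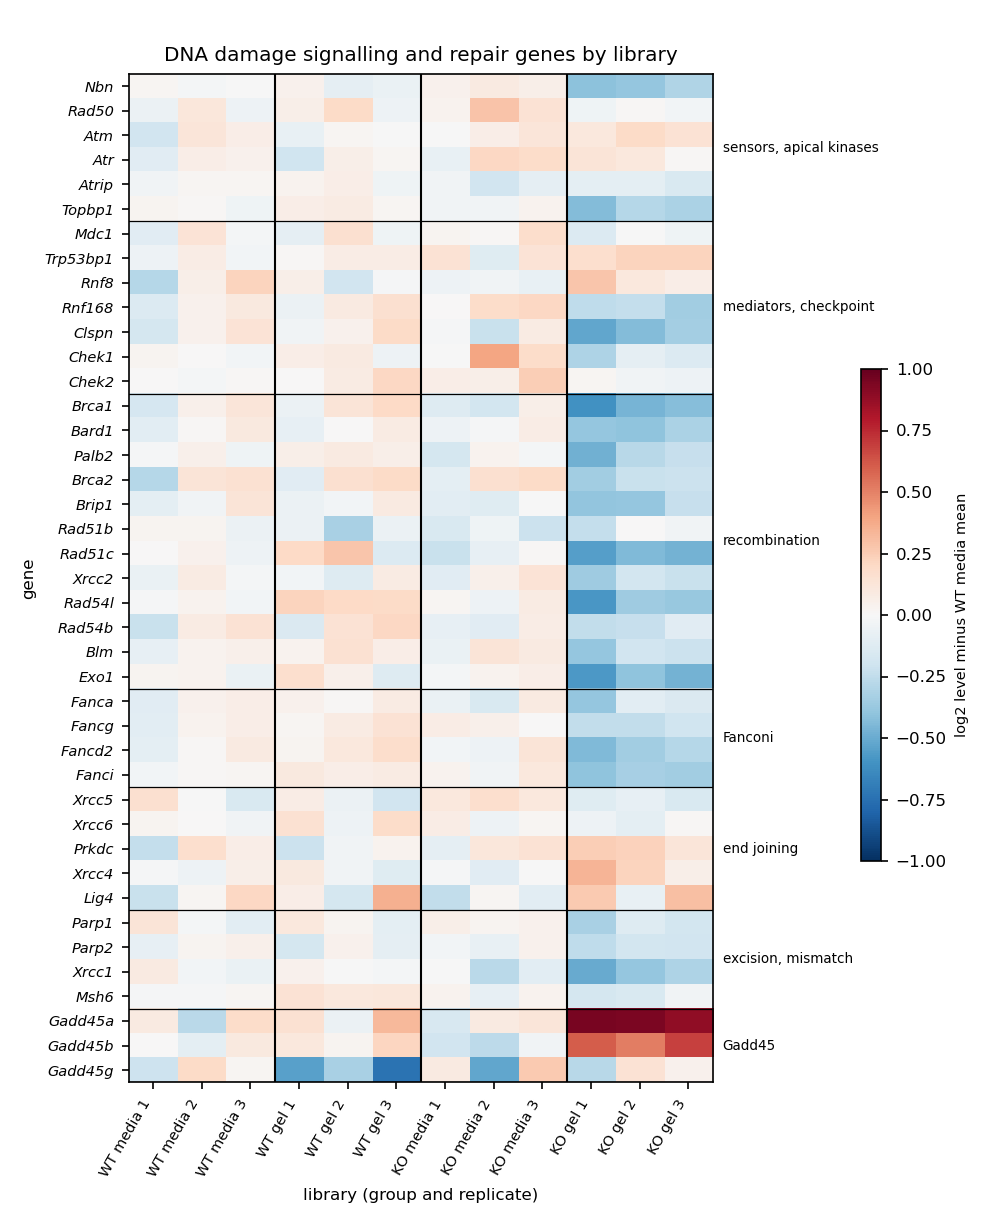
Each row is 1 of the 41 genes, grouped by role, and each column 1 of the 12 libraries; colour gives the log2 level minus the mean of the 3 WT media libraries. The 3 KO gel columns are lower over most of the recombination and Fanconi rows and higher for Gadd45a and Gadd45b, while the other 9 columns lie near 0 for most genes.

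The comparison of KO gel with WT gel gave 17 members lower and 2 higher, with DESeq2 calling 18 and 2. Over all genes 7.71% were called lower and 7.12% higher, and among the better measured genes the shares were 13.3% and 4.03%. The median member stood at -0.23 and the groups did not overlap for 31 of 41, against 38.2% of all genes. This comparison and that of KO gel with KO media use the same 3 KO gel libraries, so their values are given side by side below and neither supports the other. Scaling by total counts alone gave 9 members lower and 4 higher against WT gel, with 2.14% of all genes lower and 9.86% higher. That scaling moved the median of all genes to 0.102 and put the median member at -0.13. In the comparison with KO media it gave 12 lower and 2 higher, with 4.57% of all genes lower and 10.6% higher.

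Break sensors and apical kinases were split. Of 6 genes, 2 were called lower in KO gel against KO media, Nbn and Topbp1, and the group median was -0.11. Nbn encodes nibrin, the subunit of the Mre11 complex that brings Atm to breaks. Its level was 32.0, 31.1 and 31.4 CPM (WT) and 32.5, 33.5 and 32.9 (KO) in media, while the gel libraries held 32.4, 29.5 and 30.1 (WT) and 23.7, 24.1 and 25.6 (KO). All 3 KO gel libraries lay below the other 9. The log2 fold change was -0.43 ± 0.06 (SE) against KO media (edgeR adjusted p = 0.000381) and -0.33 ± 0.06 against WT gel (edgeR adjusted p = 0.00316). Topbp1, which activates Atr at stalled forks, was at 358, 354 and 341 CPM in the WT libraries and 342, 342 and 359 in the KO libraries of media, with gel values of 367, 372 and 356 for WT and 260, 288 and 281 for KO. It too had no overlap between KO gel and any other group, with -0.33 ± 0.06 against KO media (edgeR adjusted p = 0.00257) and -0.40 ± 0.06 against WT gel (edgeR adjusted p = 0.000942). The other subunit of the Nbn complex measured here, Rad50, was not called (-0.18 ± 0.08 against KO media, edgeR adjusted p = 0.118). The kinases were not called either: Atm was at 147, 155 and 150 CPM in KO gel and 136, 143 and 148 in KO media, and Atr at 81.3, 80.0 and 74.9 against 70.8, 86.0 and 84.6. For both kinases, and for the Atr partner Atrip, the KO gel and KO media libraries overlapped.

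Mediators and checkpoint kinases gave 3 of 7 genes lower in KO gel against KO media, with a median of -0.15. Rnf168, a ubiquitin ligase that marks histones beside a break, was measured at 38.1, 38.4 and 35.7 CPM after gel and 45.6, 51.5 and 52.4 after media in KO cells. In WT cells it was at 41.3, 46.7 and 48.5 in media and 43.5, 48.4 and 50.7 in gel. Its change was -0.41 ± 0.08 against KO media (edgeR adjusted p = 0.00328) and -0.35 ± 0.08 against WT gel (edgeR adjusted p = 0.0118). Clspn, the adaptor through which Atr activates Chek1, was at 127, 135 and 144 CPM in KO gel against 180, 156 and 192 in KO media, 177, 187 and 208 in WT gel and 161, 187 and 200 in WT media. Again the KO gel libraries were the lowest of all, at -0.38 ± 0.10 against KO media (edgeR adjusted p = 0.0142) and -0.50 ± 0.10 against WT gel (edgeR adjusted p = 0.00399). Chek1, the kinase Clspn serves, was at 22.7, 26.5 and 25.5 CPM in KO gel and 28.1, 37.0 and 32.0 in KO media. It was called against KO media (-0.38 ± 0.09, edgeR adjusted p = 0.0121) but not against WT gel (-0.21 ± 0.09, edgeR adjusted p = 0.15), where the levels were 29.5, 29.9 and 27.1 CPM. The highest Chek1 value of the 12 libraries was that of KO media replicate 2. The other kinase, Chek2, was not called (-0.15 ± 0.08, edgeR adjusted p = 0.173). Nor were the scaffold Mdc1 (-0.13 ± 0.08), the end-joining mediator Trp53bp1 (0.15 ± 0.07) and the ligase Rnf8 (0.21 ± 0.12), with edgeR adjusted p of 0.257, 0.156 and 0.236.

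Homologous recombination held the largest block of calls: 10 of its 12 genes were lower in KO gel against KO media and 8 against WT gel. The medians were -0.33 and -0.36. The 10 genes act at steps from resection (Exo1) and preparation of the resected strand (Brca1, Bard1, Palb2, Brca2, Rad51c, Xrcc2) to strand exchange (Rad54l) and the helicases Brip1 and Blm. The 2 genes not called were Rad51b (0.05 ± 0.10) and Rad54b (-0.16 ± 0.11), with edgeR adjusted p of 0.739 and 0.308 against KO media. The summed CPM of the 12 genes was 72.7, 79.0 and 80.7% of the WT media mean in the KO gel libraries, and 92.5 to 108% in the other 9.

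Rad54l and Exo1 had the largest falls among genes called in every alternative analysis of both comparisons. Rad54l, a motor protein of strand exchange (chr4:116094264-116123690 in GRCm38, minus strand), was at 88.0, 91.0 and 86.9 CPM when WT cells were kept in media and at 103, 102 and 101 after gel. KO cells went from 89.6, 85.4 and 93.7 (media) to 59.2, 69.2 and 68.3 (gel). WT gel was the highest group and KO gel the lowest, neither overlapping another group. The change was -0.45 ± 0.07 against KO media (edgeR adjusted p = 0.00051) and -0.64 ± 0.07 against WT gel (edgeR adjusted p = 6.39e-05). Exo1, the exonuclease of long-range resection (chr1:175880581-175913489, plus strand), was at 49.0, 49.2 and 46.0 CPM (WT) and 47.5, 49.3 and 50.5 (KO) in media, while the gel libraries held 53.9, 49.8 and 44.0 (WT) and 32.2, 36.3 and 34.6 (KO). Its mean in KO gel was 0.7 of that in KO media, with -0.51 ± 0.08 on the log2 scale (edgeR adjusted p = 0.000525) and -0.52 ± 0.08 against WT gel (edgeR adjusted p = 0.000712).

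Brca1 and its partners fell together. Brca1 was at 90.9, 100 and 103 CPM in KO gel, against 127, 122 and 144 in KO media, 133, 151 and 158 in WT gel and 123, 143 and 150 in WT media. Bard1, its obligate partner in a ubiquitin ligase, was at 76.9, 76.1 and 80.8 CPM in KO gel, against 97.1, 99.7 and 106 in KO media, 95.2, 101 and 106 in WT gel and 93.2, 102 and 107 in WT media. Palb2, which links Brca1 to Brca2, was at 16.7, 19.1 and 19.8 CPM in KO gel, against 20.6, 23.8 and 22.9 in KO media and 24.2, 24.7 and 24.2 in WT gel. For all 3 genes the KO gel libraries lay below the libraries of both groups they were compared with. Against KO media the log2 fold changes were -0.42 ± 0.09 for Brca1, -0.37 ± 0.07 for Bard1 and -0.28 ± 0.08 for Palb2, with edgeR adjusted p of 0.00722, 0.00224 and 0.0247. Against WT gel they were -0.59 ± 0.09, -0.37 ± 0.07 and -0.39 ± 0.08, with edgeR adjusted p of 0.00109, 0.0027 and 0.00502. Brca2, which acts on resected DNA, was at 69.2, 75.3 and 75.8 CPM in KO gel and 82.2, 98.3 and 100 in KO media. It was called against KO media (-0.35 ± 0.12, edgeR adjusted p = 0.0465) and not against WT gel (-0.34 ± 0.12, edgeR adjusted p = 0.062), although the libraries did not overlap in either. The helicase Brip1 was at 60.6, 60.8 and 67.8 CPM in KO gel and 73.8, 73.3 and 79.4 in KO media (-0.26 ± 0.07, edgeR adjusted p = 0.0251).

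Rad51c and Xrcc2, which act early in recombination, were called lower, and so was the Bloom helicase. Rad51c was at 5.23, 5.64 and 5.51 CPM in KO gel, against 6.58, 7.26 and 7.74 in KO media and 8.81, 9.31 and 6.98 in WT gel. That is -0.39 ± 0.12 (edgeR adjusted p = 0.0293) and -0.61 ± 0.12 (edgeR adjusted p = 0.00387). Xrcc2 was at 14.3, 16.1 and 15.6 CPM in KO gel and 16.9, 18.9 and 20.1 in KO media, called in that comparison (-0.28 ± 0.09, edgeR adjusted p = 0.036) but not against WT gel (-0.23 ± 0.09, edgeR adjusted p = 0.0918). The related Rad51b overlapped, at 10.2, 12.1 and 11.7 CPM in KO gel and 10.9, 11.7 and 10.4 in KO media. Blm, which dissolves joined DNA molecules, was at 56.8, 64.8 and 63.9 CPM in KO gel and 70.7, 81.1 and 79.0 in KO media (-0.32 ± 0.07, edgeR adjusted p = 0.00867). Against WT gel Blm stood at -0.35 ± 0.07 (edgeR adjusted p = 0.00639).

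**Figure D2:**
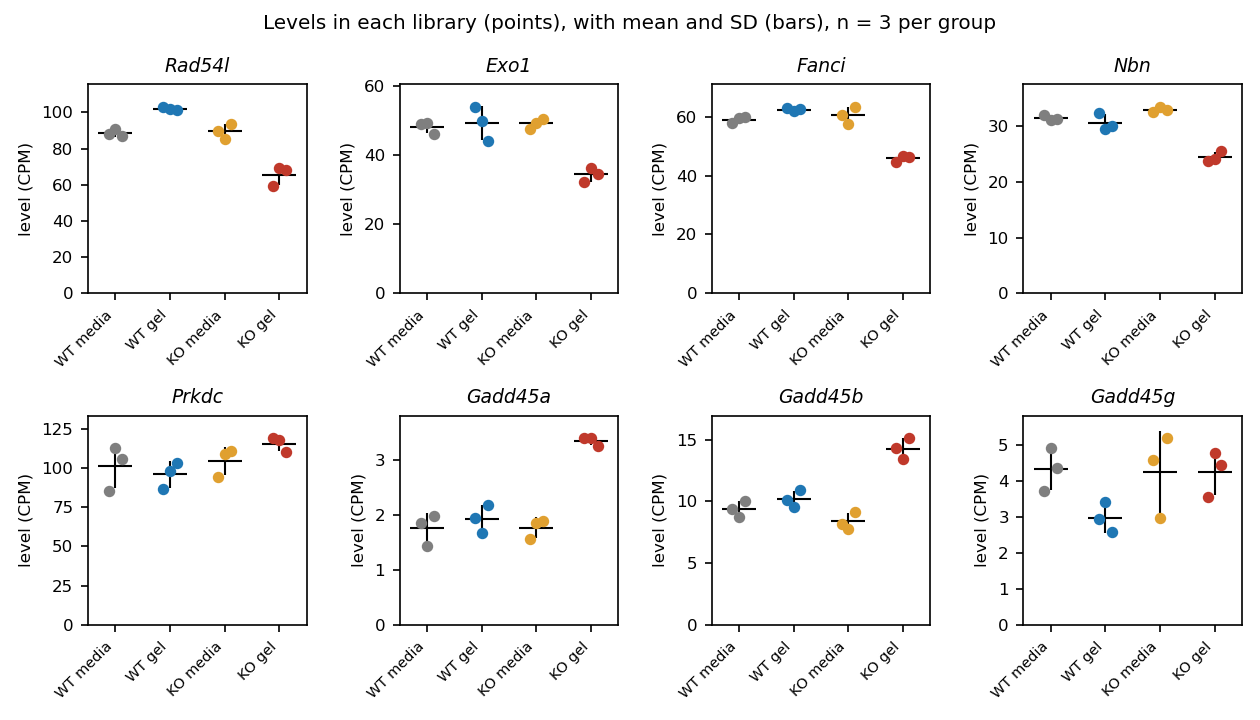
Level in CPM (vertical axis, from 0) of 8 genes in each of the 12 libraries, with the mean and SD of each group of 3. Rad54l, Exo1, Fanci and Nbn are lowest in KO gel, Gadd45a and Gadd45b highest there, and Prkdc and Gadd45g show overlapping groups of KO libraries.

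The Fanconi anaemia pathway gave 3 of 4 genes lower in KO gel in both comparisons. Fancd2 and Fanci form the pair of proteins that is ubiquitinated at a crosslink, and Fancg belongs to the core complex that does so. Fanci was at 57.7, 59.4 and 59.7 CPM in the WT libraries and 60.5, 57.4 and 63.3 in the KO libraries of media, with gel values of 62.9, 61.8 and 62.5 for WT and 44.7, 46.7 and 46.4 for KO. Fancd2 was at 63.9, 68.6 and 71.6 CPM in KO gel, compared with 85.4, 84.1 and 95.2 (KO media), 88.9, 93.6 and 98.2 (WT gel) and 81.4, 87.6 and 92.6 (WT media). Both genes were lowest in KO gel with no overlap. The change against KO media was -0.40 ± 0.06 for Fanci (edgeR adjusted p = 0.000375) and -0.37 ± 0.07 for Fancd2 (edgeR adjusted p = 0.00315). Against WT gel it was -0.44 ± 0.06 (edgeR adjusted p = 0.000269) and -0.46 ± 0.07 (edgeR adjusted p = 0.00111). Fancg was at 24.7, 24.6 and 25.5 CPM in KO gel and 30.9, 30.4 and 29.4 in KO media, a change of -0.28 ± 0.07 (edgeR adjusted p = 0.00939). A second core complex gene, Fanca, was not called, at 35.4, 43.1 and 42.0 CPM in KO gel and 44.3, 41.6 and 49.3 in KO media. With the replicate block it was called lower in both comparisons. Against WT gel it was also called lower with the compared groups alone, no filter beyond 1 count, and without WT media replicate 1.

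End joining was the repair role with no call. None of its 5 genes was called in either comparison (0 of 5, with 2 at an unadjusted p below 0.05 in each), and DESeq2 called 1 of them lower, Xrcc5, against KO media only. Over all genes tested, 9.74% were lower and 11.1% higher against KO media, and 7.71% and 7.12% against WT gel. With 5 genes, 0 calls lies near those shares and says nothing particular to the role. The group's median was 0.14 against KO media and its summed CPM in KO gel was 108, 106 and 103% of the WT media mean. Xrcc5 and Xrcc6 encode the Ku subunits that cap a broken end. Xrcc5 was at 37.9, 39.0 and 37.1 CPM in KO gel and 44.4, 46.4 and 44.3 in KO media, just short of the threshold (-0.24 ± 0.08, edgeR adjusted p = 0.0502, DESeq2 adjusted p = 0.0467). Xrcc5 was also called lower against KO media with the compared groups alone, no filter beyond 1 count, and the replicate block. The same held without WT gel replicate 1 or 3, and without WT media replicate 1 or 3. Its levels in WT gel, 43.5, 39.5 and 36.1 CPM, overlapped those in KO gel. Prkdc, the kinase that Ku recruits, was at 119, 118 and 110 CPM in KO gel, against 94.6, 109 and 111 in KO media and 86.7, 98.4 and 103 in WT gel. The ligase pair Xrcc4 and Lig4 stood at 0.26 ± 0.10 and 0.28 ± 0.15 against KO media, with edgeR adjusted p of 0.074 and 0.186. Xrcc4 was called higher in both comparisons in a fit of the better measured genes alone, as was Trp53bp1, and against KO media with the replicate block. Prkdc was called higher against WT gel in 5 alternatives: total-count scaling, no filter beyond 1 count, the compared groups alone, the replicate block, and without WT media replicate 1. Whether the end joining genes responded otherwise than the recombination genes was not tested.

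Among single-strand break, base excision and mismatch repair genes, 2 of 4 were called lower in each comparison, but not the same pair. Parp1, which senses single-strand breaks, was at 122, 140 and 134 CPM in KO gel and 159, 156 and 158 in KO media. Its change was -0.25 ± 0.08 (edgeR adjusted p = 0.0325), and against WT gel, at 164, 156 and 143 CPM, it was -0.22 ± 0.08 (edgeR adjusted p = 0.0658). Xrcc1, the scaffold that Parp1 recruits, was at 35.9, 38.9 and 41 CPM in KO gel, against 50.7, 42.1 and 47.4 in KO media and 52.5, 50.8 and 50.1 in WT gel. It was called in both, at -0.28 ± 0.08 (edgeR adjusted p = 0.0221) and -0.40 ± 0.08 (edgeR adjusted p = 0.00345). Msh6, a mismatch recognition subunit, was at 157, 160 and 173 CPM in KO gel, against 182, 168 and 182 in KO media and 196, 191 and 192 in WT gel. It was called against WT gel only (-0.24 ± 0.06, edgeR adjusted p = 0.0169), and stood at -0.12 ± 0.06 against KO media (edgeR adjusted p = 0.172). Parp2 was not called in either comparison of the 4-group fit. Against KO media it was called lower with the compared groups alone, no filter beyond 1 count, and the replicate block. The same held without WT gel replicate 1 or 3, and without WT media replicate 1.

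In the Gadd45 family 2 of 3 genes were called higher. Gadd45a and Gadd45b were the only members called higher in KO gel, and Gadd45g was not called in any comparison of the 4-group fit. Gadd45a, known as a p53 target (chr6:67035096-67037457 in GRCm38, minus strand), was at 1.85, 1.44 and 1.99 CPM (WT) and 1.56, 1.86 and 1.9 (KO) in media, while the gel libraries held 1.94, 1.67 and 2.19 (WT) and 3.4, 3.4 and 3.27 (KO). The lowest KO gel library lay above the highest of the other 9. The mean in KO gel was 1.9 times that in KO media, a log2 fold change of 0.93 ± 0.16 (edgeR adjusted p = 0.00141), and 0.78 ± 0.16 against WT gel (edgeR adjusted p = 0.00574).

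Gadd45b, known as a gene induced by NF-kappaB and TGF-beta signals (chr10:80930073-80932204, plus strand), was at 9.39, 8.73 and 10 CPM in the WT libraries and 8.2, 7.8 and 9.13 in the KO libraries of media, with gel values of 10.1, 9.55 and 10.9 for WT and 14.3, 13.4 and 15.1 for KO. Here too no other library reached KO gel. The change was 0.77 ± 0.09 against KO media (edgeR adjusted p = 0.000162) and 0.48 ± 0.10 against WT gel (edgeR adjusted p = 0.00446). Gadd45g was at 3.73, 4.92 and 4.36 CPM (WT) and 4.59, 2.98 and 5.18 (KO) in media, while the gel libraries held 2.94, 3.42 and 2.57 (WT) and 3.54, 4.77 and 4.44 (KO). Its low group was WT gel, so that KO gel stood at 0.53 ± 0.20 against WT gel (edgeR adjusted p = 0.098) and at 0.00 against KO media, with an SE of 0.19 (edgeR adjusted p = 0.994). Against WT gel it was called higher with total-count scaling, no filter beyond 1 count, the compared groups alone, and without KO media replicate 2.

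**Figure D3:**
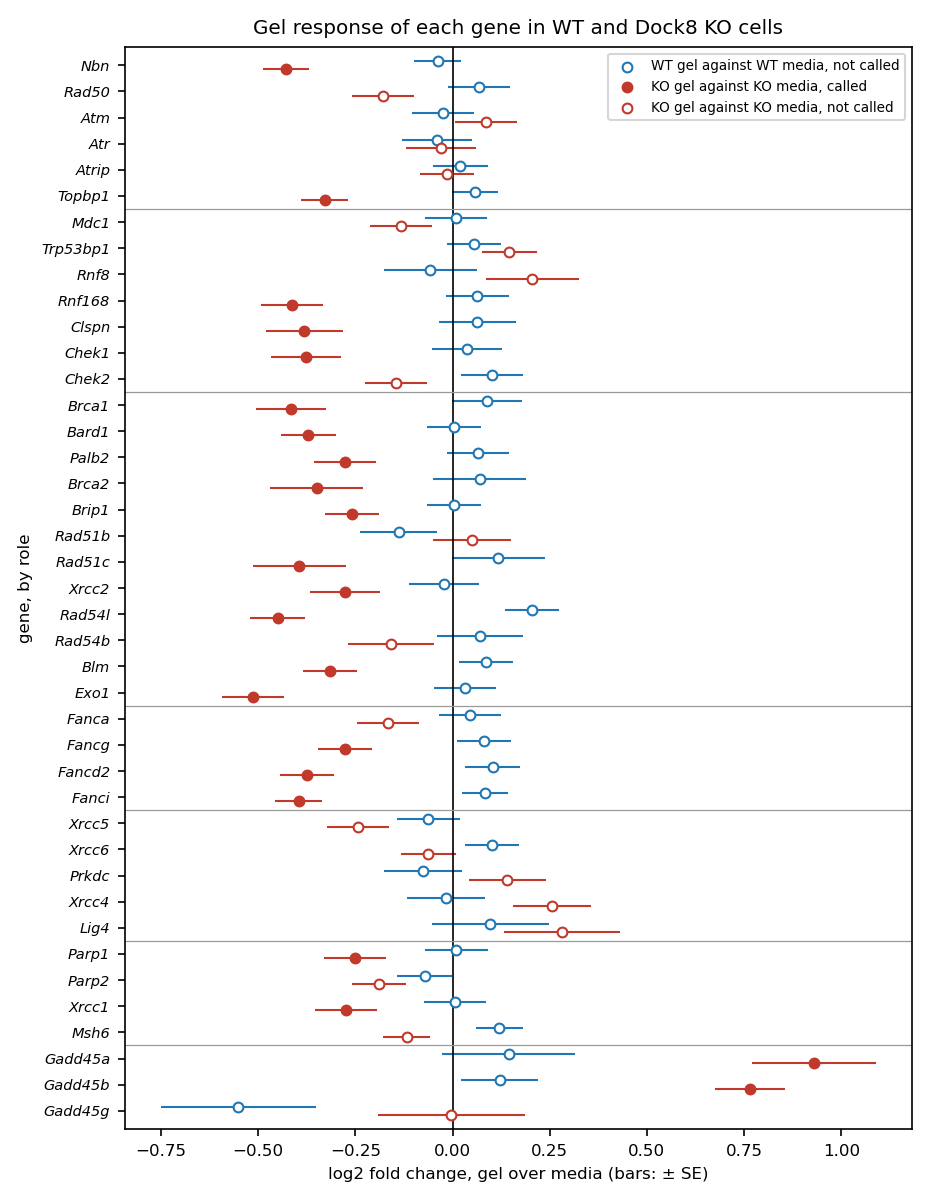
Log2 fold change of gel over media, with its SE, for each of the 41 genes in WT cells (blue) and KO cells (red); filled points passed the test. No WT point is filled, and the 20 filled KO points left of 0 lie mostly among recombination and Fanconi genes, with Gadd45a and Gadd45b at the far right.

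The difference between the KO and the WT response to gel was tested directly, as the interaction of genotype and gel. It was called for 11 members, 10 lower and 1 higher, where 1.45% of all genes were called lower and 1.89% higher (2.66% and 1.03% among the better measured genes). DESeq2 called 13 lower and 1 higher. The 10 were Nbn, Topbp1, Rnf168, Bard1, Rad54l, Blm, Exo1, Fancg, Fancd2 and Fanci, and the 1 was Gadd45b. The largest was Rad54l, whose gel response was 0.65 lower in KO than in WT cells (-0.65 ± 0.09, edgeR adjusted p = 0.00451), followed by Exo1 at -0.55 ± 0.11 (edgeR adjusted p = 0.0177). Gadd45a did not reach the threshold for this difference (0.79 ± 0.23, edgeR adjusted p = 0.08), and neither did Brca1 (-0.51 ± 0.13, edgeR adjusted p = 0.0512). The number of these calls varied with the libraries used. Without WT gel replicate 2 and KO media replicate 3, which hold the most ribosomal RNA counts (19.1% and 12.6%), no member was called in either direction. The median member still stood at -0.23, against -0.25 with all libraries, and over all genes 0.00526% were then called lower and 0.147% higher. Scaling by total counts, which moved the median of all genes to 0.124, gave 1 lower and 1 higher. Leaving out 1 library at a time gave 2 lower without KO gel replicate 1, and 3 without KO gel replicate 2, KO media replicate 3, WT gel replicate 2 or WT media replicate 2. It gave 5 without KO gel replicate 3, and 6 without KO media replicate 1, KO media replicate 2 or WT gel replicate 1. More were lower without WT gel replicate 3 or WT media replicate 3, and 11 were without WT media replicate 1. Shares of all genes called are not given for the total-count and single-library fits, so these changes in count say nothing particular to the members. A fit with the replicate block gave 21 lower and 2 higher, Brca1 and Gadd45a among them, with 9.88% of all genes lower and 8.16% higher. Equal numbers paired WT media with WT gel in the data, but KO media with KO gel not at every number.

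Of the 20 genes lower in KO gel against KO media, 8 were called in every alternative analysis: Bard1, Exo1, Fancd2, Fanci, Nbn, Rad54l, Rnf168 and Topbp1. Against WT gel 9 of 17 were: Brca1, Clspn, Exo1, Fancd2, Fanci, Rad51c, Rad54l, Topbp1 and Xrcc1. Gadd45a and Gadd45b were called higher in every alternative of both comparisons that tested them; Gadd45a and Rad51c lie below the mean log2 CPM of 3 that 1 alternative required. The count of 20 was 10 without KO gel replicate 1, 13 without KO media replicate 3, and 9 without the ribosomal RNA rich libraries. Shares of all genes called in these fits are not given here, so the lower counts say nothing particular to the members.

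Reads shared with overlapping genes limit some of these values, since the sources used here do not give the strand setting of the counting. On the opposite strand, Lrrc41 covers 15.4% of the exon length of Rad54l, Polg 16% of Fanci and E230016M11Rik 19.1% of Gadd45a. None of these 3 partners was called between KO gel and KO media: Lrrc41 stood at -0.07 ± 0.09, Polg at -0.13 ± 0.06 and E230016M11Rik at 0.32 ± 0.23. Against WT gel Polg was called lower (-0.24 ± 0.06, edgeR adjusted p = 0.0109). Tubgcp4 covers 15% of the exon length of Trp53bp1, also on the opposite strand, so the value for Trp53bp1 is limited too. Tubgcp4 was not called against KO media (0.01 ± 0.06) or WT gel (-0.11 ± 0.06). Zfp276, on the strand opposite Fanca (10.5% of its exons), was called higher against KO media (0.32 ± 0.08, edgeR adjusted p = 0.015), so the value for Fanca is uncertain. On the same strand, Fsbp shares 35.8% of the exon length of Rad54b, Trex1 16% of Atrip and Gm28043 13.2% of Rnf8, and the values of those 3 members are uncertain as well.

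Per length, the members spanned a wide range of levels. In WT media the highest was Msh6, at 40.8 ± 0.436 CPM per kb of exon (SD, n = 3), then Topbp1 at 31.3 ± 0.761 and Parp1 at 28.9 ± 2.39. Topbp1 and Parp1 do not differ beyond their SDs. The lowest were Rnf8, at 0.774 ± 0.136, and Gadd45a, at 0.998 ± 0.161, again not apart beyond their SDs. The length used was that of all annotated exons of a gene, 11703 bases for Rnf8, so these ranks depend on the annotation. In KO gel Gadd45a stood at 1.9 ± 0.0436 CPM per kb and Gadd45b at 8.96 ± 0.537, while Topbp1 at 24.6 ± 1.3 and Parp1 at 25 ± 1.72 again did not differ beyond their SDs.

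A wider list of 131 other genes of the same pathways gave 41 lower and 8 higher in KO gel against KO media, with a median of -0.13 (9.74% and 11.1% over all genes). Its 28 further recombination and resection genes gave 14 lower and 0 higher (DESeq2 also 0 higher). They included Fignl1 (-0.60), an ATPase of the recombination pathway, and Rpa2 (-0.46), a subunit of the complex that coats single-stranded DNA. Its 27 sensing and checkpoint genes gave 11 lower and 1 higher: the histone H2ax, whose phosphorylated form marks breaks, stood at -0.49, the deubiquitinase Usp1 at -0.41 and the phosphatase Cdc25a at -0.39, and Ppm1d, which switches the signal off, was the 1 higher, at 0.16. H2ax was at 239, 260 and 256 CPM in KO gel and 363, 356 and 340 in KO media.

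Calls in both directions were found among the 21 further Fanconi and crosslink genes, with 6 lower and 4 higher. Those higher included the translesion polymerases Poln (0.73), Polk (0.53) and Rev1 (0.36), and those lower the translesion polymerase Polh (-0.35), the ubiquitin ligases Fancl (-0.36) and Rad18 (-0.28). Poln and Rev1, unlike Polk, also stood higher in WT gel than in WT media without overlap, though not called. Poln was at 2.44, 2.63 and 3.17 CPM in WT gel and 2.67, 2.52 and 2.82 in KO gel. Rev1 was at 35.4, 32.2 and 30.2 CPM in WT gel and 33.7, 36.6 and 38.3 in KO gel. For both genes the 2 gel groups overlapped. Of 13 further end joining genes 3 were lower, among them Polm (-0.58) and Tdp1 (-0.29), and 1 higher, Dclre1c (0.40), which opens hairpin ends. Polm and Dclre1c overlapped between KO gel and WT gel, while Tdp1 did not. Polm was at 10.5, 12.9 and 10.8 CPM in KO gel and 16.6, 14.6 and 9.97 in WT gel. Dclre1c was at 30.7, 29.4 and 29.7 CPM in KO gel and 26.1, 24.8 and 30.2 in WT gel. Of 42 further excision and mismatch genes 7 were lower and 2 higher, shares near or below those of the better measured genes (16.8% and 6.42%). The replication ligase Lig1 (-0.55) was at 158, 182 and 183 CPM in KO gel and 259, 239 and 267 in KO media. The nucleotide excision nuclease Ercc5 (0.66) was at 53.7, 50.7 and 51.6 CPM in KO gel and 33.9, 31.1 and 34.0 in KO media. Neither gene's groups overlapped.

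Against WT gel the 131 genes gave 37 lower and 3 higher, where the shares over all genes were 7.71% and 7.12%. For the interaction they gave 12 lower and 2 higher, against 1.45% and 1.89%, so that the count higher was near the background. The 2 were Ercc5 (0.65 ± 0.09, edgeR adjusted p = 0.00316) and Polk (0.48 ± 0.10, edgeR adjusted p = 0.0208), both of which stand on the list of p53 targets too. WT gel against WT media gave 0 calls in the list by either tool, with 2 genes at an unadjusted p below 0.05.

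**Figure D4:**
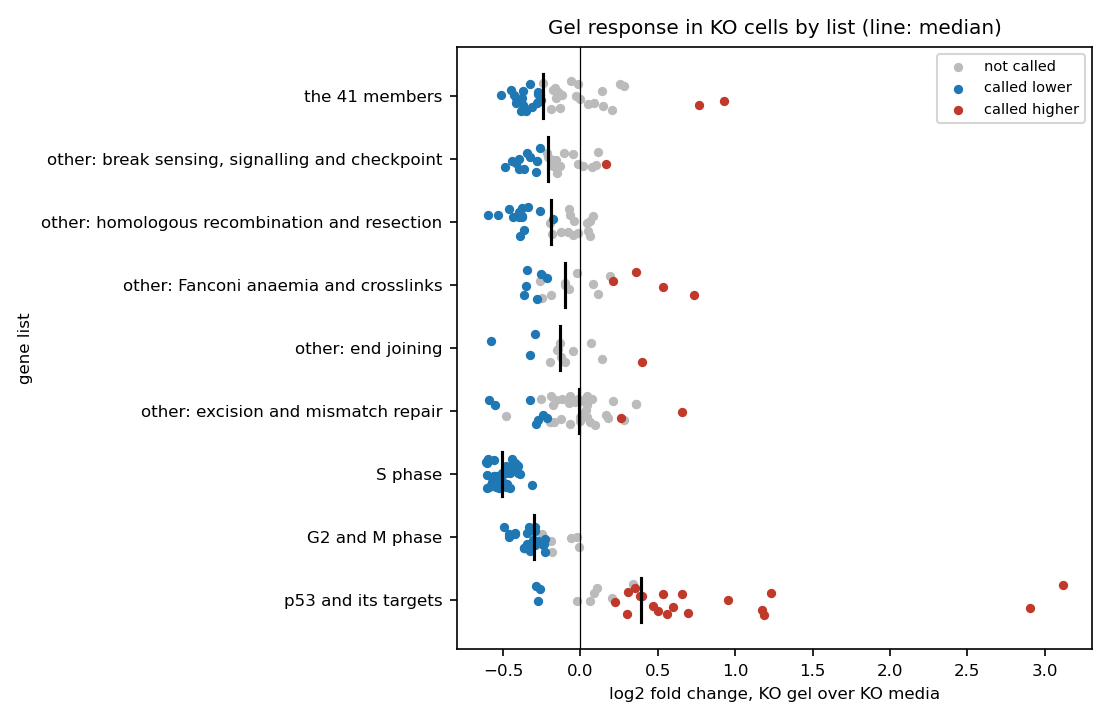
Log2 fold change of KO gel over KO media for the 41 genes, the 5 lists of other repair genes, and lists of S phase, G2 and M phase and p53 target genes; each point is a gene and the black line the list's median. The median of the 41 genes (-0.24) lies between 0 and that of S phase (-0.51), and the p53 list lies mostly right of 0.

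Markers of the cell cycle moved with the members. In KO gel against KO media, 34 of 34 S phase genes were called lower, with a median of -0.51, and 24 of 30 G2 and M phase genes, with a median of -0.30. The S phase genes summed to 65.0, 75.3 and 73.8% of the WT media mean in KO gel and the G2 and M phase genes to 79.1, 78.7 and 83.0%. KO gel replicate 1, the lowest for S phase, was also the lowest for the recombination sum. Of 28 genes on a list of p53 and its targets, 19 were higher and 3 lower (Trp53, Tigar and Ddb2), with a median of 0.39 and a sum of 126, 119 and 130% of the WT media mean. Against WT gel 33 of 34 S phase genes and 26 of 30 G2 and M phase genes were lower, and 15 p53 genes higher. In WT gel against WT media no gene of these 3 lists was called by edgeR or DESeq2, with 6 p53 genes, 1 G2 and M phase gene and 0 S phase genes at an unadjusted p below 0.05. The part of cell cycle or p53 activity in the members' values was not tested.

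**Figure D5:**
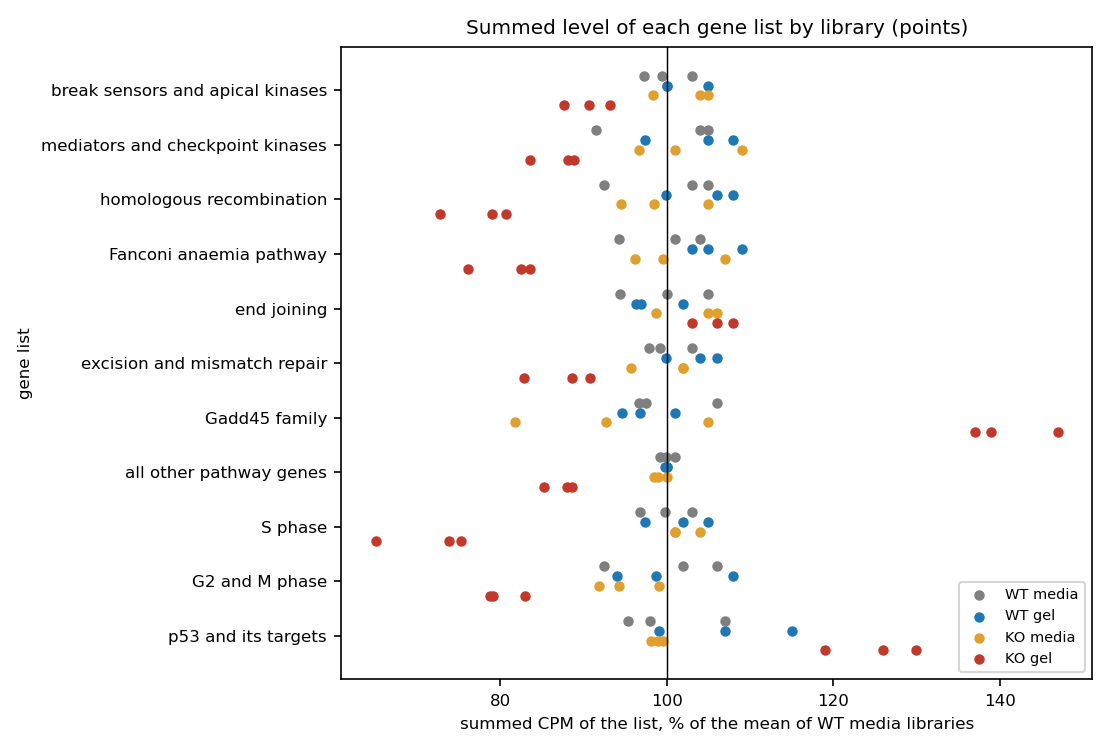
Summed CPM of each list in each library (points), as a percentage of the mean of the WT media libraries. The KO gel libraries (red) lie below the others for recombination, Fanconi, S phase and G2 and M phase genes, among the others or just above them for end joining, and above them for Gadd45 and p53 targets.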

How the data were processed

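The authors deposited 1 table of raw read counts per gene symbol for the 12 libraries. Per the labels' protocols, total RNA was depleted of ribosomal RNA before library construction. FastQC, MultiQC, HISAT2, SAMtools, Picard and featureCounts are listed in the submitters' processing notes, with builds GRCm38 and mm10; the sources used here do not give versions, annotation, strand setting or the treatment of duplicates. Of the symbols, 96.4% matched GENCODE M21, which gave exon lengths and overlaps, and 2 read as dates.

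The deposited counts were fitted with edgeR 4.0.16 (filterByExpr, TMM scaling, robust quasi-likelihood F test, R 4.3.3) in 1 model of 4 groups, with 5 contrasts and Benjamini-Hochberg adjustment over 19010 genes. SEs were derived from the fold change and F. DESeq2 1.42.0 was an alternative. The edgeR step was tested on simulated counts.

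The members and gene lists were chosen with earlier results of these data known. Members were given by library where called in a contrast, in the Gadd45 family or leading their role, up to 24 by smallest adjusted p; Gadd45g and other uncalled members shown with values were picked after seeing them. From other lists up to 3 called genes per direction were named.

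Replicate numbers of the labels were checked for pairing over 9959 genes. Deviations from the group means correlated for equal numbers at 0.784, 0.237 and 0.793 between WT media and WT gel, which pairs those samples by the data. No label says that they share mice. Between WT media and KO media, which differ in genotype and so in mice, equal numbers correlated more weakly, at 0.21, 0.161 and 0.379. Each was still the highest of its libraries between those groups. Blocking left both comparisons at 0 members called. KO gel libraries did not pair at every number with KO media or WT gel (lowest correlations -0.0448 and -0.419). With KO media, numbers 2 and 3 stood at 0.168 and 0.18.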

Additional observations from a re-analysis of the deposited data

Results flagged for a closer look

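The gel response differed between genotypes, by the edgeR test of the interaction, for 11 members. In log2 units the response in KO cells minus that in WT cells was -0.39 for the break sensor Nbn, -0.39 for Topbp1 and -0.48 for the histone ubiquitin ligase Rnf168. Among recombination genes it was -0.37 for Bard1, -0.65 for Rad54l, -0.40 for Blm and -0.55 for Exo1. Among Fanconi genes it was -0.36 for Fancg, -0.48 for Fancd2 and -0.48 for Fanci. Gadd45b was the 1 member with a higher response in KO cells, at 0.64. None of the 11 was called without the 2 libraries richest in ribosomal RNA counts, although the median over all 41 members was then -0.23, against -0.25; over all genes calls fell from 276 to 1 lower and from 360 to 28 higher.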

How the results depend on the processing

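No called member changed sign under any alternative, and Gadd45a and Gadd45b stayed higher in both comparisons with KO gel wherever tested. The 2 comparisons without KO gel gave 0 members in every analysis. For KO gel against KO media, members lower were 20, and 12 by total-count scaling, 13 in a fit of better measured genes (log2 CPM averaging 3 or more), and 9 without the ribosomal RNA rich libraries; leaving out single libraries gave 10 to 22 lower and 2 to 2 higher. Members higher were 2, and 3 under the replicate block (Xrcc4 added). They were also 3 in the fit of better measured genes, there Gadd45b, Trp53bp1 and Xrcc4, since Gadd45a was not tested. For KO gel against WT gel, total-count scaling gave 9 lower and 4 higher, no filter beyond 1 count 4 higher, a fit of the compared groups alone 4 higher, and better measured genes gave 3 higher (Gadd45b, Trp53bp1 and Xrcc4); single libraries left out gave 16 to 20 lower and 2 to 3 higher. For the interaction, total-count scaling gave 1 lower, better measured genes gave 4 lower, the ribosomal RNA rich libraries left out 0 lower and 0 higher, and single libraries left out 2 to 11 lower and 0 to 1 higher. With the replicate block, the counts were 26 lower and 3 higher against KO media, 20 lower and 3 higher against WT gel, and 21 lower and 2 higher for the interaction. By the check, the KO gel libraries did not pair with their controls at every number, while the WT groups did. The genes that the block added to those lower against KO media were Fanca, Mdc1, Parp2, Rad50, Rad54b and Xrcc5. Fewer samples or genes entered some fits, and otherwise the cause was not tested. Shares of all genes called are not given beside the counts in this paragraph, so their changes say nothing particular to the members. The loci counted as ribosomal RNA were chosen after seeing the data. Gadd45a, with 42 to 136 counts per library, is the member with the fewest counts.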
